A study of Mus musculus with 6 samples.

Results

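The homing and chemokine receptors described here are 7 genes taken by name from the deposited tables: Cxcr4, Cxcr5, Ccr7, Ccr9, S1pr1, S1pr4 and Gpr183. There are 37315 genes in the abundance table and 19402 genes with allele counts, and all 7 receptors are in both. The data are RNA-seq of 3 lines of immortalised mouse B cells, Abl.2 (female), Abl.3 (male) and Abl.4 (female). All derive from the F1 cross written 129S1/SvImJ x CAST/EiJ, in which the parental alleles of a gene can be told apart at sequence differences between the strains. Every library came from control cells in medium with 1% DMSO, the solvent, collected on day 2, so no treatment was compared. Each line is 1 clone with 2 libraries that differ in library preparation. Nothing says that these came from separate cultures, so each p-value covers only the spread between preparations, which may be technical. A difference between lines is a difference between single clones, and clone and culture cannot be told apart. In comparisons with Abl.3, the male line, neither can sex, whereas Abl.2 and Abl.4 are both female.

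These receptors are G protein-coupled receptors that steer B cells between bone marrow, blood and the compartments of lymphoid organs. CXCR4 holds B-cell precursors near stromal cells that secrete CXCL12, CXCR5 and CCR7 draw mature cells to follicles and to the T zone, and CCR9 responds to the gut and thymus chemokine CCL25. S1PR1 reads the sphingosine 1-phosphate gradient that lets lymphocytes leave tissues for blood, S1PR4 is a second, blood-cell receptor for the same lipid, and GPR183 (EBI2) follows oxysterols toward the edges of follicles.

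Positions are those of the authors' tables, and all 7 genes had the same start and end as protein-coding genes in GENCODE release M21 (build GRCm38). Cxcr4 (ENSMUSG00000045382) lies on the minus strand at chr1:128588199-128592293, and S1pr4 (ENSMUSG00000044199) on the minus strand at chr10:81497747-81500132. S1pr1 (ENSMUSG00000045092) lies on the minus strand at chr3:115710433-115715072, and Ccr7 (ENSMUSG00000037944) on the minus strand at chr11:99144196-99155077. Cxcr5 (ENSMUSG00000047880) lies on the minus strand at chr9:44511787-44561877, and 110 bases at its end overlap Bcl9l on the plus strand, exons included. Gpr183 (ENSMUSG00000051212) lies on the minus strand at chr14:121952551-121965195, wholly within Ubac2 on the plus strand but with no shared exon. Ccr9 (ENSMUSG00000029530) lies on the plus strand at chr9:123678439-123784330 and overlaps 6 annotated genes. No source used here states counting by strand, so reads of overlapping genes may not be told apart.

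Promoter sequence was matched for 4 of the 7 receptors in the RefSeq table of build GRCm38.p6: Cxcr4, S1pr4, Ccr9 and Gpr183. The 2 receptors with the highest mean TPM over all libraries (in Abl.4, S1pr1 was above S1pr4) are shown because they stand far apart in CG dinucleotides, the sites where DNA is methylated, and both differed in allele use between clones (below). Each run is the 250 bases before the annotated start, 5′ to 3′ on the gene's own strand, with CG in capitals. The Cxcr4 sequence is chr1:128592300-128592549 (minus strand) and the S1pr4 sequence is chr10:81500138-81500387 (minus strand).
Cxcr4: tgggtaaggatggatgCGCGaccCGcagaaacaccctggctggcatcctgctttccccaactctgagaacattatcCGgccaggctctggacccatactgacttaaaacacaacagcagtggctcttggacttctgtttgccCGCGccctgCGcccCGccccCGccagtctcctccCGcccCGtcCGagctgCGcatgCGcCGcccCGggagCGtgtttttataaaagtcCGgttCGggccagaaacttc
S1pr4: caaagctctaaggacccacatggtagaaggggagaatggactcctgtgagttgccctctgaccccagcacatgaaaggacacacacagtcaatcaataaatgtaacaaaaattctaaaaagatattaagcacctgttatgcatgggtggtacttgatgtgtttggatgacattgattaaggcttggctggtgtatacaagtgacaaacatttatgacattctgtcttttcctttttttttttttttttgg
The Cxcr4 promoter held 19 CG and the S1pr4 promoter 0, beside a median of 6 over 32851 promoters of the same length. Fewer CG than in Cxcr4 were found in 80.3% of promoters. Ccr9 had 3 and Gpr183 had 2. The Ccr9 window, chr9:123766961-123767210 (plus strand), precedes a RefSeq start within the gene as placed above, not the start at 123678439. The letters CACCC or, on the other strand, GGGTG, a core bound by Kruppel-like factors such as KLF2, were in the Cxcr4, S1pr4 and Ccr9 windows and in 52.0% of all promoters. The letters GTAAACA or TGTTTAC, a core bound by FOXO factors, were in none of the 4 and in 3.17% of all. Methylation was not measured in these libraries.

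The receptor repertoire was led by Cxcr4 in every library, and the receptors below it changed places from clone to clone. Abundance is given in TPM, a unit scaled to transcript length and to the total of each library, so levels can be compared between genes. In Abl.2 the order of line means was Cxcr4, S1pr4, S1pr1, Cxcr5, Ccr7, Gpr183, Ccr9. In Abl.3 it was Cxcr4, S1pr4, Ccr7, S1pr1, Cxcr5, Gpr183, Ccr9, and in Abl.4 it was Cxcr4, S1pr1, S1pr4, Ccr7, Gpr183, Cxcr5, Ccr9. The libraries of neighbours in these orders did not overlap, except that Ccr7 and Gpr183 met at 0.43 TPM in Abl.2 and that Gpr183 and Ccr9 overlapped in Abl.3. Cxcr4 supplied 63.5% to 73.3% of the summed TPM of the 7 receptors. S1pr4 supplied 30.9% and 34.4% of it in Abl.2 but 8.87% and 8.96% in Abl.4. S1pr1 went from at most 2.52% in Abl.2 and Abl.3 to 9.78% and 10.1% in Abl.4.

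**Figure D1:**
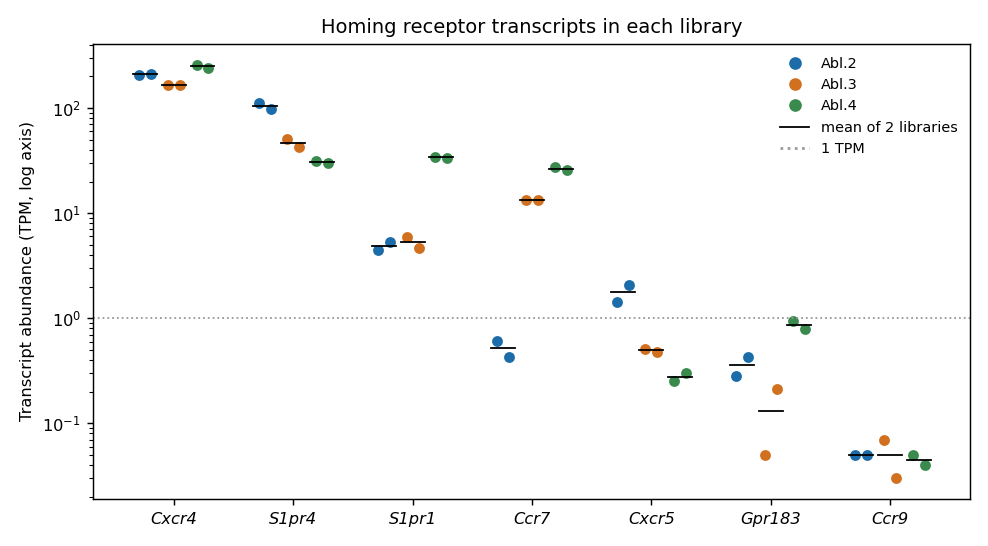
Transcript abundance (TPM, log axis) of the 7 receptors, with a point per library, a black line at the mean of the 2 libraries of a line and a dotted line at 1 TPM. Cxcr4 is highest in all 6 libraries, Ccr7 spans from 0.43 to 27.28 TPM between clones, and Ccr9 stays at or below 0.07 TPM.

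Differences in abundance were tested with limma on log2(TPM + 1) over the 11003 genes averaging at least 1 TPM, with a Benjamini-Hochberg adjusted p under 0.05 as the threshold. Of the 7 receptors, 4 met that mean: Cxcr4, S1pr4, S1pr1 and Ccr7. Of those 4, 3 differed between Abl.2 and Abl.3, where 39.8% of all tested genes did. All 4 differed between Abl.2 and Abl.4 (background 33.5%) and between Abl.3 and Abl.4 (background 38.1%). With a background this high, a call alone sets a receptor little apart, and the sizes below carry more. The median of all tested genes was itself shifted on the log2 scale, by 0.10 for Abl.2 minus Abl.3, by -0.03 for Abl.2 minus Abl.4 and by -0.15 for Abl.3 minus Abl.4. The share of calls higher in the first line of each pair was 65.0%, 44.9% and 29.8%, against 51.4%, 52.8% and 52.0% after quantile normalisation. On counts summed over both alleles with edgeR that share was 50.7%, 46.2% and 45.8%. No called difference of a receptor changed sign under either scaling.

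Among the chemokine receptors, Cxcr4 was abundant everywhere and varied least of the 4 tested receptors in fold terms. It measured 207.27 and 211.09 TPM in the Abl.2 libraries, 165.83 and 165.03 TPM in Abl.3, and 259.13 and 243.35 TPM in Abl.4. The lines did not overlap, with Abl.3 lowest and Abl.4 highest. The mean in Abl.4 (251.24 ± 11.2 TPM, SD, n = 2) was 1.52 times that in Abl.3 (165.43 ± 0.566 TPM, SD, n = 2). That log2 difference, Abl.3 minus Abl.4, was -0.60 (SE 0.070, limma adjusted p = 0.00124), or -0.45 beyond the median of all genes, and -0.37 on summed allelic counts (edgeR adjusted p = 0.00536). The differences between Abl.2 and the other lines were smaller, 0.34 against Abl.3 (adjusted p = 0.0103) and -0.26 against Abl.4 (adjusted p = 0.0293). On summed allelic counts the former was 0.14 with an edgeR adjusted p of 0.207, so it did not hold there. The difference from Abl.3 also missed the threshold without either library of Abl.2 or Abl.3 (adjusted p = 0.0543 to 0.0697). The difference from Abl.4 missed it without either library of Abl.2 or Abl.3 or without Abl.4 replicate 1 (adjusted p = 0.0588 to 0.148).

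Ccr7, whose product guides lymphocytes toward CCL19 and CCL21, had the largest fold difference among the tested receptors. It measured 0.61 and 0.43 TPM in Abl.2, 13.4 and 13.47 TPM in Abl.3, and 27.28 and 25.9 TPM in Abl.4. Abl.2 was thus nearly without the transcript, and all 3 lines were separated. Mean TPM was 25.8 times higher in Abl.3 and 51.1 times higher in Abl.4 than in Abl.2, and 1.98 times higher in Abl.4 than in Abl.3. On the log2(TPM + 1) scale, which understates changes from such low levels, Abl.2 minus Abl.3 was -3.25 (SE 0.124, limma adjusted p = 1.24e-05). Abl.2 minus Abl.4 was -4.18 (adjusted p = 6.28e-06), and Abl.3 minus Abl.4 was -0.93 (adjusted p = 0.00214).

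Cxcr5, the CXCL13 receptor of follicular B cells, was low and ran the other way, with its highest values in Abl.2. The libraries gave 1.44 and 2.08 TPM in Abl.2, 0.51 and 0.48 TPM in Abl.3, and 0.25 and 0.3 TPM in Abl.4. Its mean of 0.843 TPM kept it out of the filtered test. In the fit with no filter on low values, in which 23.3%, 20.8% and 23.6% of 17232 genes were called for Abl.2 against Abl.3, Abl.2 against Abl.4 and Abl.3 against Abl.4, Abl.2 exceeded Abl.3 by 0.87 (SE 0.133, limma adjusted p = 0.0120). Abl.2 also exceeded Abl.4, by 1.10 (adjusted p = 0.00663), and Abl.3 minus Abl.4 was 0.23 (95% interval -0.12 to 0.58). The overlapping Bcl9l was also highest in Abl.2, at 7.31 and 6.79 TPM against 2.21 to 4.37 TPM in the other lines, and its part in the Cxcr5 values was not tested.

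Ccr9, the CCL25 receptor, was close to undetected. Its abundance was 0.03 to 0.07 TPM over the 6 libraries, and in the unfiltered limma fit no pair of lines differed by more than 0.01 on the log2 scale (the interval for Abl.2 minus Abl.4 ran from -0.10 to 0.11). It had 3 allelic counts in Abl.3 replicate 2, 1 in Abl.4 replicate 1 and 0 in the other 4 libraries. A count of 0 allows up to 3 counts, which was 0.112 to 0.151 CPM in those 4 libraries (counts scaled to the allelic total of each library).

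Among the lipid receptors, S1pr1 was highest in Abl.4. It measured 4.43 and 5.32 TPM in Abl.2, 5.96 and 4.69 TPM in Abl.3, and 34.57 and 33.85 TPM in Abl.4. Abl.2 and Abl.3 overlapped, and both Abl.4 libraries stood above all others. The Abl.4 mean (34.2 ± 0.509 TPM, SD, n = 2) was 7.02 times that of Abl.2 and 6.42 times that of Abl.3 in TPM. On summed allelic counts edgeR gave folds of 13.3 and 7.62. The log2 differences were -2.59 for Abl.2 minus Abl.4 (SE 0.146, limma adjusted p = 5.72e-05) and -2.48 for Abl.3 minus Abl.4 (adjusted p = 7.89e-05). Abl.2 minus Abl.3 was -0.10, with a 95% interval from -0.45 to 0.25 and an adjusted p of 0.610. On summed allelic counts, by contrast, edgeR gave -0.81 (adjusted p = 0.0239), Abl.3 being higher.

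S1pr4 was highest in Abl.2, lower in Abl.3 and lowest in Abl.4. The values were 112.32 and 98.13 TPM in Abl.2, 50.91 and 43 TPM in Abl.3, and 31.37 and 29.94 TPM in Abl.4, with no overlap between lines. Abl.2 (105.2 ± 10.0 TPM, SD, n = 2) was 2.24 times higher than Abl.3 and 3.43 times higher than Abl.4. The log2 differences were 1.15 (SE 0.114, limma adjusted p = 0.000587) and 1.74 (adjusted p = 0.000104). Abl.3 exceeded Abl.4 by 0.59 (adjusted p = 0.00860), a call that was lost without Abl.3 replicate 1 (adjusted p = 0.0558). In Abl.2 the S1pr4 mean was far above that of S1pr1, 105.2 against 4.88 TPM, whereas in Abl.4 S1pr1 was slightly above S1pr4, 34.2 against 30.7 TPM.

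Gpr183 was low throughout, with 0.28 and 0.43 TPM in Abl.2, 0.05 and 0.21 TPM in Abl.3, and 0.94 and 0.79 TPM in Abl.4. The lines did not overlap, with Abl.4 highest. In the unfiltered limma fit Abl.4 exceeded Abl.2 by 0.46 (Abl.2 minus Abl.4 was -0.46, SE 0.108, adjusted p = 0.0438) and Abl.3 minus Abl.4 was -0.73 (adjusted p = 0.0121). Neither call held on summed allelic counts with edgeR, where a library had 6 to 68 counts. The log2 differences there had the same sign, at -1.13 (adjusted p = 0.182) and -1.59 (adjusted p = 0.0815). The gene around it, Ubac2, measured 41.48 to 66.61 TPM and was likewise highest in Abl.4 and lowest in Abl.3, and its part in the Gpr183 values was not tested.

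**Figure D2:**
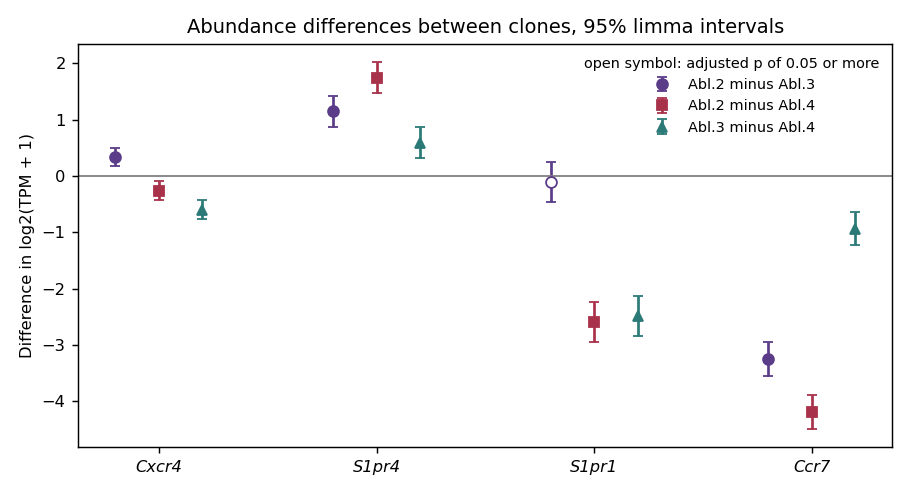
Difference in log2(TPM + 1) between each pair of lines for the 4 tested receptors, with 95% limma intervals; filled symbols passed an adjusted p of 0.05. S1pr4 lies above 0 in all pairs, Ccr7 lies below 0 in all pairs, and only the Abl.2 minus Abl.3 interval of S1pr1 (-0.45 to 0.25) includes 0.

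The allele counts assign reads of each receptor to the maternal or the paternal allele. The cross is written in a single direction, so parent of origin and strain of an allele cannot be told apart. A bias in assigning reads to a strain was not tested. The maternal share is the count for the maternal allele divided by the counts of both, 0.5 being equal use. It was given for libraries with at least 20 allelic counts, with 95% Wilson intervals, which cover counting error only because the reads carry no molecular identifiers. The edgeR quasi-likelihood test covered 8702 genes with at least 20 counts in every library, 5 of the 7 receptors among them. Ccr9 was left out with 0 to 3 counts, and Gpr183 because of 6 counts in Abl.3 replicate 1. Unequal use of the alleles within Abl.2 was called for 4 of the 5 (Cxcr4, S1pr4, S1pr1 and Cxcr5), where 49.1% of all genes were called. It was called for 2 of 5 in Abl.3 (Cxcr4 and S1pr1, background 45.1%) and for 3 of 5 in Abl.4 (Cxcr4, S1pr1 and Ccr7, background 39.9%). The allele ratio differed between Abl.2 and Abl.3 for 2 of 5 (background 28.4%) and between Abl.2 and Abl.4 for 3 of 5 (background 22.3%). Between Abl.3 and Abl.4 it differed for 0 of 5 with edgeR (background 16.5%), with 0 at an unadjusted p under 0.05 and 0 with DESeq2.

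**Figure D3:**
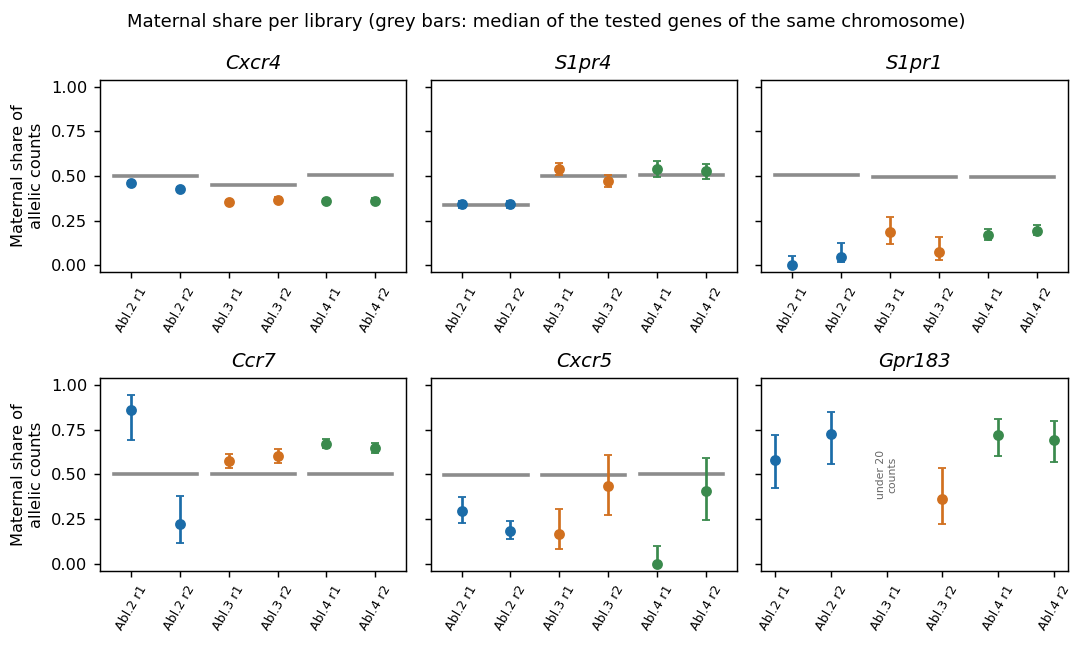
Maternal share of allelic counts per library (r1 and r2 are replicates 1 and 2) for 6 receptors, with 95% Wilson intervals or, where the maternal count was 0, a bar up to the 3 counts that a 0 allows; grey bars are the median of tested genes on the same chromosome, drawn for receptors tested in all libraries. S1pr4 lies on the grey bar in Abl.2 at 0.341, while S1pr1 lies far below it in every library.

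S1pr1 counts came largely from the paternal allele in all 3 clones. The maternal allele had 0 of 59 counts in Abl.2 replicate 1, which allows a share of up to 0.0508, and 3 of 66 in replicate 2 (share 0.0455, interval 0.0156 to 0.125). In Abl.3 the share was 0.184 (0.119 to 0.272) and 0.0714 (0.0309 to 0.157), on 98 and 70 counts. In Abl.4, with 572 and 780 counts, it was 0.171 (0.143 to 0.204) and 0.194 (0.167 to 0.223). All 6 libraries were below 0.2, while the median gene of chromosome 3 was at 0.492 to 0.505. Imbalance was called in Abl.2 (edgeR adjusted p = 3.39e-05), Abl.3 (log2 maternal to paternal ratio -2.68, adjusted p = 0.000382) and Abl.4 (-2.16, SE 0.271, adjusted p = 0.000102). The nearest tested gene, Dph5, an enzyme of diphthamide synthesis 172765 bases away, also leaned to the paternal allele in each line (mean shares 0.376, 0.368 and 0.331). Rnpc3, the nearest on the other side, was at 0.434 to 0.491.

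The high S1pr1 level of Abl.4 involved both alleles. The paternal allele averaged 2.47 CPM in Abl.2, 3.78 in Abl.3 and 27.6 in Abl.4, so it was 7.29 times higher in Abl.4 than in Abl.3. The maternal allele averaged 0.589 CPM in Abl.3 and 6.22 CPM in Abl.4, from 18 and 5 counts in the Abl.3 libraries and 98 and 151 in the Abl.4 libraries. The allele ratio did not differ detectably between Abl.3 and Abl.4 (log2 difference -0.52, 95% interval -1.66 to 0.61, edgeR adjusted p = 0.592). Abl.2 was more paternal than Abl.4 (adjusted p = 0.0155), a call that rests on 3 maternal counts and was lost without Abl.2 replicate 1 (adjusted p = 0.104). The difference between Abl.2 and Abl.3 had an adjusted p of 0.0663.

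S1pr4 had maternal shares near 0.5 on average in Abl.3 and Abl.4 and favoured the paternal allele in Abl.2. The maternal share was 0.341 in each Abl.2 library (intervals 0.321 to 0.363 and 0.321 to 0.361), on 1980 and 2086 counts. It was 0.541 (0.508 to 0.574) and 0.472 (0.438 to 0.507) in Abl.3, where the replicates lay on opposite sides of 0.5 with intervals that did not overlap, and 0.539 and 0.527 in Abl.4. Abl.2 stood apart from all 4 other libraries. The log2 maternal to paternal ratio in Abl.2 minus that in Abl.3 was -0.99 (SE 0.167, edgeR adjusted p = 0.000851), and minus that in Abl.4 it was -1.14 (SE 0.175, adjusted p = 0.000532). Abl.3 minus Abl.4 was -0.15 (95% interval -0.55 to 0.26).

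Chromosome 10 as a whole had a lower median maternal share in Abl.2. The median maternal share of its 431 tested genes was 0.337 in Abl.2, against 0.503 in Abl.3 and 0.504 in Abl.4. S1pr4, at a mean of 0.341, had 234 of those genes below it in Abl.2. Gna15, which encodes a G protein alpha subunit of blood cells and lies 2174 bases from S1pr4, had mean shares of 0.380, 0.503 and 0.505 in Abl.2, Abl.3 and Abl.4. Its allele ratio in Abl.2 also differed from both other lines (edgeR adjusted p = 0.00161 and 0.00190). Nfic, the nearest tested gene on the other side, was at 0.412, 0.494 and 0.460, and no pair of lines passed the test. The part of the whole chromosome in the S1pr4 difference was not tested.

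Counted per allele, the higher S1pr4 level of Abl.2 was larger on the paternal side. The paternal allele averaged 54.3 CPM in Abl.2, 21.6 CPM in Abl.3 and 11.4 CPM in Abl.4. The maternal allele averaged 28.1, 22.3 and 13.0 CPM in the same order. The maternal value in Abl.2 was thus 1.26 times that in Abl.3 and the paternal value 2.51 times. Against Abl.4 the ratios were 2.16 and 4.76.

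Cxcr4 favoured the paternal allele in every library, least in Abl.2. On 4386 to 7103 counts per library, the maternal share was 0.460 and 0.428 in Abl.2, 0.354 and 0.367 in Abl.3, and 0.359 and 0.362 in Abl.4. The Abl.2 libraries were above all others, and their own intervals did not overlap (0.448 to 0.473 and 0.416 to 0.439). The imbalance within lines was -0.32 in Abl.2 (SE 0.059, edgeR adjusted p = 0.000856), -0.83 in Abl.3 (adjusted p = 1.53e-06) and -0.83 in Abl.4 (adjusted p = 1.38e-06) as log2 maternal to paternal ratios. Without Abl.2 replicate 2 the imbalance in Abl.2 was -0.23 (adjusted p = 0.0500085), which narrowly missed the threshold. Abl.2 differed from Abl.3 by 0.50 (SE 0.084, adjusted p = 0.000816) and from Abl.4 by 0.50 (SE 0.083, adjusted p = 0.000923). Against a null set at the allele totals of each library instead of equal counts, these differences were 0.31 (adjusted p = 0.0148) and 0.36 (adjusted p = 0.00770), and the imbalance in Abl.2 was -0.49 (adjusted p = 3.91e-05). Abl.3 and Abl.4 differed by less than 0.01, with a 95% interval from -0.19 to 0.19.

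The equal shares of Abl.3 and Abl.4 came with unlike surroundings. The median gene of chromosome 1 had a maternal share of 0.449 in Abl.3, against 0.501 in Abl.2 and 0.504 in Abl.4. Dars, an aspartyl-tRNA synthetase gene and the nearest tested gene before Cxcr4, had shares of 0.466, 0.408 and 0.456 in Abl.2, Abl.3 and Abl.4. Its ratio in Abl.3 differed from Abl.2 (edgeR adjusted p = 0.00666) and from Abl.4 (adjusted p = 0.0325), so it did not follow the Cxcr4 pattern of Abl.2 against the rest. Cd55, on the other side, was at 0.575 to 0.658. Per allele, maternal Cxcr4 was 120.3 CPM in Abl.2, 87.7 in Abl.3 and 114.9 in Abl.4, and paternal Cxcr4 was 150.3, 155.9 and 203.9 CPM. Abl.3 and Abl.2 thus differed mostly in the maternal value, and Abl.4 and Abl.2 mostly in the paternal value, while from Abl.3 to Abl.4 both were 1.31 times higher.

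**Figure D4:**
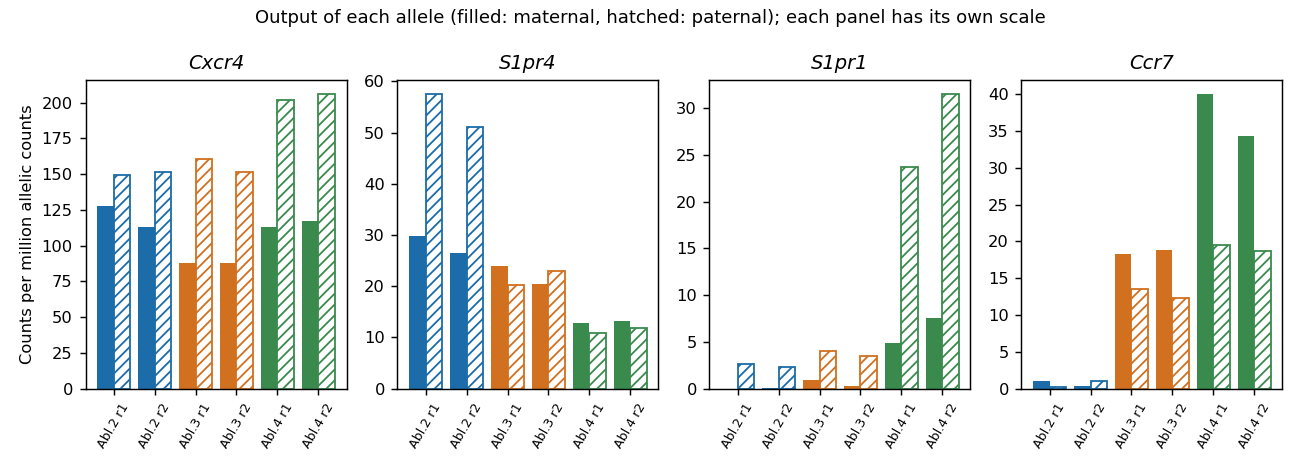
CPM (scaled to the allelic total of each library) for the maternal (filled) and paternal (hatched) allele in each library, with a scale per panel starting at 0. In Abl.2 the paternal bars of S1pr4 (51.2 and 57.4 CPM) are above every other bar of that panel, and S1pr1 is paternal in all lines.

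Ccr7 leaned to the maternal allele where it was expressed well. The maternal share was 0.575 (0.536 to 0.613) and 0.604 (0.564 to 0.643) in Abl.3, and 0.673 (0.645 to 0.699) and 0.648 (0.619 to 0.676) in Abl.4. In Abl.4 the imbalance passed the test (log2 0.96, SE 0.289, edgeR adjusted p = 0.0231), but not when either Abl.4 library was left out (adjusted p = 0.141 and 0.0801). In Abl.3 it was 0.52 (adjusted p = 0.195). With each line fitted alone, the imbalance was also 0.52 in Abl.3 (edgeR adjusted p = 0.0124) and 0.96 in Abl.4 (adjusted p = 0.000195). Ccr7 met the count minimum in every library, so these fits differed for it in leaving out the other lines, Abl.2 among them. The part of the Abl.2 libraries in the change was not tested. The flanking tested genes Top2a and Smarce1 were near equal use, at 0.506 to 0.531 in each line. From Abl.3 to Abl.4 the maternal allele went from 18.6 to 37.1 CPM, 2.00 times, and the paternal allele from 12.9 to 19.0 CPM, 1.47 times. The difference in allele ratio between these lines was -0.44 (95% interval -1.37 to 0.50, adjusted p = 0.586).

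In Abl.2, where Ccr7 was nearly silent, the libraries named opposite alleles. Replicate 1 had 25 maternal and 4 paternal counts (share 0.862, interval 0.694 to 0.945). Replicate 2 had 8 maternal and 28 paternal counts (share 0.222, interval 0.117 to 0.381). The intervals did not overlap, and of the 8702 tested genes only 2, Ccr7 among them, had so large a difference in share between the Abl.2 libraries, where the median difference was 0.0189. The mean share therefore describes neither library, and the test of imbalance in Abl.2 (edgeR adjusted p = 0.943) takes its direction from whichever library is kept.

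The remaining receptors had few allelic counts. Cxcr5 leaned to the paternal allele, with maternal shares of 0.296 and 0.181 in Abl.2 on 142 and 227 counts, where the imbalance had an edgeR adjusted p of 0.0401. The other lines had 27 to 42 counts a library, and the share ran from 0 of 30 in Abl.4 replicate 1, which allows up to 0.100, to 0.433 in Abl.3 replicate 2. The Cxcr5 imbalance in Abl.2 was a log2 ratio of -1.72 with all libraries. It did not hold with DESeq2 (adjusted p = 0.145). Nor did it hold without Abl.2 replicate 1 (-2.18) or without Abl.2 replicate 2 (-1.25). With Abl.2 fitted alone it was -1.73 (edgeR adjusted p = 0.000868), so the call varied with the libraries in the fit. Bcl9l, which overlaps it, was at 0.468 and 0.518 in Abl.2, and the nearest tested genes Ccdc84 and Ddx6 were at 0.469 to 0.540 in each line. Gpr183 had maternal shares of 0.579 and 0.727 in Abl.2, 0.364 in Abl.3 replicate 2, and 0.721 and 0.695 in Abl.4. Ubac2 around it had shares of 0.440 and 0.513 in Abl.4, on 2119 and 2347 counts.

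The authors' deposited table gives a maternal fraction per line with low and high limits. For S1pr1 it lists 0.02 (0 to 0.31) in Abl.2, 0.14 (0 to 0.45) in Abl.3 and 0.18 (0.09 to 0.3) in Abl.4. For S1pr4 the authors' deposited table lists 0.34 (0.28 to 0.4), 0.51 (0.4 to 0.62) and 0.53 (0.37 to 0.69), and for Cxcr4 it lists 0.44 (0.41 to 0.48), 0.36 (0.32 to 0.41) and 0.36 (0.32 to 0.4). In the authors' deposited table the limits of Abl.2 and Abl.3 meet for S1pr4 at 0.4 and for Cxcr4 at 0.41, while for Cxcr4 those of Abl.2 and Abl.4 do not overlap. Those of Abl.2 and Abl.4 overlap for S1pr4, and for S1pr1 the limits of Abl.2 span those of Abl.4. For Ccr7 the authors' deposited table has no value in Abl.2, 0.59 (0.46 to 0.71) in Abl.3 and 0.66 (0.55 to 0.76) in Abl.4. The authors' deposited table lists Cxcr5 in Abl.2 alone, at 0.22 (0.07 to 0.43), and Gpr183 in Abl.4 alone, at 0.71 (0.25 to 1).

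Transcripts of most chemokine ligands of these receptors were at or near 0. Cxcl13, Ccl19 and Ccl21a, the ligands of CXCR5 and CCR7, were listed at 0 TPM in all 6 libraries, and Cxcl12, the CXCR4 ligand, at 0 to 0.19 TPM. Ccl25, the CCR9 ligand, was at 6.23 to 14.43 TPM. Sphingosine 1-phosphate, the ligand of S1PR1 and S1PR4, is a lipid and was not measured. Of the kinases that make it, Sphk2 was at 24.4 to 33.45 TPM with no pair of lines passing the test, and Sphk1 at 0.06 to 0.3 TPM. The oxysterol enzymes acting on the GPR183 ligand were low: Ch25h at 0 to 1.05 TPM, Cyp7b1 at 0 to 0.26 TPM and Hsd3b7 at 0.27 to 1.43 TPM. Of 21 ligand and ligand metabolism genes, 6 met the abundance filter. Higher in Abl.2 were 3, and in Abl.3 1, where 25.9% and 14.0% of all genes were called in those directions. The counts were 1 and 3 for Abl.2 against Abl.4 (background 15.0% and 18.4%) and 0 and 4 for Abl.3 against Abl.4 (background 11.3% and 26.8%), where quantile normalisation and both count tools on summed allelic counts called 0 and 2. Their median log2 differences were 0.68, -0.69 and -0.43, beside 0.10, -0.03 and -0.15 over all genes.

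The list includes enzymes that remove sphingosine 1-phosphate, which did not share an order across the clones. Sgpl1, the lyase that degrades it, was at 80.15 and 80.69 TPM in Abl.2 and at 34.2 to 49.72 TPM in the other lines (limma log2 difference Abl.2 minus Abl.3 1.12, adjusted p = 0.000316). Plpp3, a lipid phosphatase, measured 1.91 and 2.44 TPM in Abl.2, 4.02 and 4.35 TPM in Abl.3, and 6.08 and 6.37 TPM in Abl.4 (Abl.2 minus Abl.4 -1.19, adjusted p = 0.00169). Sgpp1, a sphingosine 1-phosphate phosphatase, had 16.03 and 19.15 TPM in Abl.2, was lowest in Abl.3 (6.16 and 7.24 TPM) and highest in Abl.4 (38.56 and 39.8 TPM), and passed the test in all 3 pairs (Abl.3 minus Abl.4 -2.39, adjusted p = 5.72e-05). Ccl3, an inflammatory chemokine for other receptors, was at 0 and 0.48 TPM in Abl.3, 7.99 and 8.19 TPM in Abl.2, and 51.07 and 51.46 TPM in Abl.4.

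Among 29 other chemokine and homing receptors in the table, 9 met the filter. Higher in the first and the second line of the pair were 4 and 1 for Abl.2 against Abl.3, 2 and 3 for Abl.2 against Abl.4, and 1 and 5 for Abl.3 against Abl.4. Over all genes the shares called in those directions were 25.9% and 14.0%, 15.0% and 18.4%, and 11.3% and 26.8%. S1pr3, another sphingosine 1-phosphate receptor, was at 17.12 and 18.34 TPM in Abl.4 and at 0 to 0.45 TPM in the other lines (Abl.3 minus Abl.4 -4.19, limma adjusted p = 2.47e-05). Abl.4 was thus highest for S1pr1 and S1pr3 and lowest for S1pr4. S1pr2, which opposes migration in germinal centre B cells, was lower in Abl.2 (3.48 and 4 TPM) than in Abl.3 (5.59 and 7.81 TPM, adjusted p = 0.0224) and Abl.4 (6.29 and 6.64 TPM, adjusted p = 0.0298). Gpr18, a lymphocyte receptor gene, was at 7.66 and 9.08 TPM in Abl.3 and at 47.65 to 59.82 TPM elsewhere (Abl.2 minus Abl.3 2.67, adjusted p = 1.78e-05). Ccrl2, an atypical receptor, was at 0.87 and 1.08 TPM in Abl.4 and at 2.17 to 2.72 TPM in the other lines (Abl.3 minus Abl.4 0.82, adjusted p = 0.0117).

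Of the regulators of these receptors, Klf2 and Cd69 were graded across the clones in opposite directions. Klf2, a transcription factor that activates S1pr1, measured 27.02 and 26.16 TPM in Abl.2, 44.92 and 40.11 TPM in Abl.3, and 82.68 and 79.28 TPM in Abl.4. Cd69, whose protein binds S1PR1 and removes it from the surface, measured 1083.72 and 1193.65 TPM in Abl.2, 618.4 and 584.64 TPM in Abl.3, and 268.81 and 315.14 TPM in Abl.4. No lines overlapped for either gene, and all 3 pairs passed the limma test for both. The log2 difference Abl.2 minus Abl.4 was -1.57 for Klf2 (SE 0.090, adjusted p = 6.13e-05) and 1.96 for Cd69 (SE 0.100, adjusted p = 4.01e-05). For S1pr1 itself, Abl.2 and Abl.3 overlapped in TPM and did not pass the limma test (adjusted p = 0.610). On summed allelic counts S1pr1 was lower in Abl.2 than in Abl.3 (-0.81, edgeR adjusted p = 0.0239). It was also lower there in Abl.3 than in Abl.4 (-2.93, edgeR adjusted p = 5.01e-06). The part of Klf2 and Cd69 in the S1pr1 values was not tested. Foxo1, a factor that acts on Klf2 and Ccr7 in lymphocytes, was at 207.01 to 273.87 TPM and highest in Abl.2 (Abl.2 minus Abl.4 0.35, adjusted p = 0.0120).

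**Figure D5:**
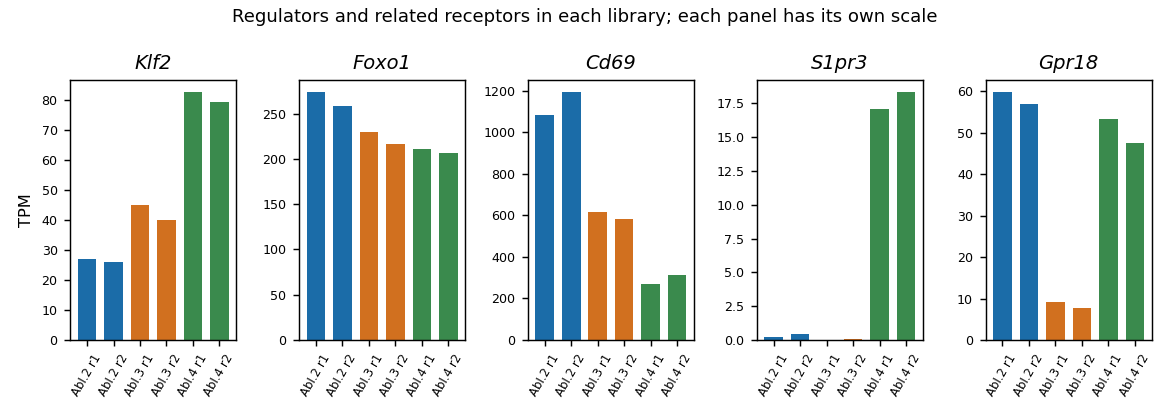
TPM per library for Klf2, Foxo1, Cd69, S1pr3 and Gpr18, with a scale per panel starting at 0. Klf2 is lowest in Abl.2 (26.16 and 27.02 TPM) and highest in Abl.4 (79.28 and 82.68 TPM), Cd69 has the reverse order, and S1pr3 is high only in the Abl.4 libraries (17.12 and 18.34 TPM).

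All 8 genes of the regulator list were tested, with 6 higher in Abl.2 and 1 in Abl.3, 3 higher in Abl.2 and 2 in Abl.4, and 1 higher in Abl.3 and 6 in Abl.4, beside the all-gene shares of 25.9% and 14.0%, 15.0% and 18.4%, and 11.3% and 26.8%. Pax5, the B-lineage identity factor, was lowest in Abl.3, at 56.18 and 63.95 TPM against 155.86 to 246.05 TPM elsewhere (Abl.2 minus Abl.3 1.89, limma adjusted p = 6.52e-05). The list's median log2 differences were 0.33, 0.05 and -0.65 for Abl.2 minus Abl.3, Abl.2 minus Abl.4 and Abl.3 minus Abl.4, beside 0.10, -0.03 and -0.15 over all genes.

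Adhesion genes work beside these receptors at vessel walls. Of 14, 12 were tested, with 3 higher in Abl.2 and 5 in Abl.3, 2 higher in Abl.2 and 6 in Abl.4, and 2 higher in Abl.3 and 5 in Abl.4. The all-gene shares in those directions were 25.9% and 14.0%, 15.0% and 18.4%, and 11.3% and 26.8%. On summed allelic counts, with 9 tested, the counts were 0 and 5, 1 and 4, and 3 and 2, and none of the 5 calls compared in each pair had another sign. Itgal, the LFA-1 alpha chain, was at 17.6 and 19.43 TPM in Abl.3 and at 1.52 to 5 TPM in the others (Abl.2 minus Abl.3 -2.87, adjusted p = 2.59e-05). Cd44, the hyaluronan receptor, was at 19.3 and 21.46 TPM in Abl.4 and at 0.11 to 1.01 TPM in the others (Abl.2 minus Abl.4 -4.22, adjusted p = 1.33e-05). Tln1, which links integrins to actin, was highest in Abl.2, at 129.94 and 160.9 TPM (Abl.2 minus Abl.3 1.10, adjusted p = 0.000784).

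Of 33 signalling and desensitisation genes in the table, 31 were tested, and 10, 10 and 14 were called for Abl.2 against Abl.3, Abl.2 against Abl.4 and Abl.3 against Abl.4, beside all-gene shares of 39.8%, 33.5% and 38.1%. Split into higher in the first and in the second line, these were 7 and 3, 3 and 7, and 4 and 10, beside all-gene shares of 25.9% and 14.0%, 15.0% and 18.4%, and 11.3% and 26.8%. For Abl.2 against Abl.3 the split did not hold under other scalings. It was 4 and 3 with quantile normalisation and, on summed allelic counts with 28 tested, 6 and 5 with edgeR and 6 and 7 with DESeq2. In the other pairs more calls were higher in the second line under each of these scalings. RGS proteins shorten receptor signals through G proteins, and their genes varied in whether they differed between lines. Rgs18 and Rgs19 passed in no pair, Rgs13 was listed at 0 TPM, and Rgs14 passed in 1 pair (Abl.2 minus Abl.4 -0.35, adjusted p = 0.0434). Rgs10 was at 1.85 and 2.72 TPM in Abl.2 and at 36.13 to 38.35 TPM in the others (Abl.2 minus Abl.3 -3.59, limma adjusted p = 1.39e-05). Rgs1 was lowest in Abl.3 at 35.36 and 40.78 TPM, against 89.14 to 170.76 TPM, and Rgs16 lowest in Abl.4 at 55.95 and 57.57 TPM, against 104.41 to 124.17 TPM. Dock8, an exchange factor for cell migration, was at 10.84 and 10.55 TPM in Abl.4 and at 0 to 0.03 TPM in the others (Abl.3 minus Abl.4 -3.53, adjusted p = 3.41e-05).

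The genes with profiles most like each tested receptor were found by Euclidean distance between log2(TPM + 1) values centred on their means, over 6 libraries and 11003 genes. For S1pr4 they were Cish (distance 0.226) and Fam129b (0.231), and Cish fell from 398.1 and 370.23 TPM in Abl.2 to 98.8 and 99.68 TPM in Abl.4. For Ccr7 they were Vangl1 (0.304), listed at 0 and 0.02 TPM in Abl.2, and Gkap1 (0.579). For S1pr1 they were Spats2 (0.261) and Lysmd2 (0.294), and for Cxcr4 Ankle2 (0.0819) and Rps6kb1 (0.0860). With 3 clones, such likeness is a description of these libraries.

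The lines carried the transcripts of early B cells. All 12 early B-lineage markers met a mean of 1 TPM, with summed levels of 12377 to 13615 TPM over the libraries. Of the 12, 8, 6 and 9 were called for Abl.2 against Abl.3, Abl.2 against Abl.4 and Abl.3 against Abl.4, beside all-gene shares of 39.8%, 33.5% and 38.1%. Split into higher in the first and in the second line, these calls were 7 and 1, 3 and 3, and 3 and 6, beside all-gene shares of 25.9% and 14.0%, 15.0% and 18.4%, and 11.3% and 26.8%. Among the less abundant, Rag1 was highest in Abl.2 (21.96 and 24.64 TPM, against 4.39 to 12.9 TPM), Dntt in Abl.4 (12.53 and 12.4 TPM, against 1.05 to 3.57 TPM), and Cd93 was lowest in Abl.3 (8.87 and 9.14 TPM, against 29.99 to 56.2 TPM). Rag2 ran opposite to Rag1, at 17.02 and 21.21 TPM in Abl.2, 23.64 and 26.27 TPM in Abl.4, and 43.41 and 46.47 TPM in Abl.3 (Abl.2 minus Abl.3 -1.20, limma adjusted p = 0.000771). The 6 markers of mature B or plasma cells in the table summed to 66.4 to 83.0 TPM, most of it Xbp1 (52.86 to 64.39 TPM), with Prdm1 at 5.19 to 15.39 TPM and Fcer2a at most 0.19 TPM. Cr2 was at 5.73 and 6.24 TPM in Abl.4 and 0.97 to 1.87 TPM elsewhere (Abl.2 minus Abl.4 -1.38, limma adjusted p = 0.00371, and Abl.3 minus Abl.4 -1.55, adjusted p = 0.00237). Ms4a1 was at 6.19 and 6.09 TPM in Abl.3 and 0.12 to 0.37 TPM elsewhere (Abl.2 minus Abl.3 -2.63, limma adjusted p = 8.98e-05, and Abl.3 minus Abl.4 2.39, adjusted p = 0.000165). Of 7 T-cell markers only Cd5 reached a mean of 1 TPM, with Cd3g, Cd4 and Trac at 0. Of 6 myeloid markers 2 did, Lyz2 (70.84 to 192.76 TPM, highest in Abl.2) and Itgam (6.74 and 6.89 TPM in Abl.4, at most 0.97 TPM elsewhere), with Elane and Cd14 at 0. Lyz2 and Rag1 were thus highest where S1pr4 was, while Rag2 was lowest there and, like Ms4a1, highest in Abl.3. Itgam, Cr2 and Dntt were highest where S1pr1, Ccr7 and Gpr183 were. The part of these markers in the receptor differences was not tested. No erythroid or stromal marker reached a mean of 1 TPM. The libraries held 18362319 to 26881211 allelic counts, and TPM keep no depth. In bulk RNA, fewer expressing cells and less RNA per cell cannot be told apart.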

How the data were processed

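The members and all gene lists were chosen with earlier results of these data known. Per the labels' protocols, DNase-treated RNA isolated with beads went into SMARTseqv4 libraries. Per the submitters' processing notes, STAR 2.5.4a, SAMtools, GATK and DESeq2 were used, and the builds GRCm38, GRCh37 and mm10 are named, with no role given. The deposited abundance table holds TPM, per the file headers. The authors deposited counts of the maternal and the paternal allele per gene. The authors also deposited a maternal fraction per line with limits whose confidence level is not given in the sources used here. Of 35412 named genes, 98.7% had the start given in GENCODE M21. Of the 37315 abundance rows, 1884 have no name.

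Abundance was tested with limma 3.58.1 in R 4.3.3 (trended eBayes), all 6 libraries together, using log2(TPM + 1) of genes averaging at least 1 TPM. Allelic counts were tested with edgeR 4.0.16 (quasi-likelihood; terms for each library and for the allele in each line) for autosomal and X genes with at least 20 counts in each library. Standard errors of edgeR differences were derived from the F statistic. P-values were adjusted by the Benjamini-Hochberg method over all tested genes, at 0.05. Intervals are 95%. Alternatives were another pseudocount (0.1), no filter, quantile normalisation, summed allelic counts (edgeR, DESeq2 1.42.0), count minimums of 10 and 50, a null at the allele totals, a replicate block and leaving out each library. Allelic counts were also fitted for each line and for each pair of lines alone. The fits were tested on simulated data.

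Named genes were all members, listed ligands and regulators, the largest rise and fall past the threshold per list and pair of lines, the 2 most alike profiles, and the nearest tested genes on each side. Bcl9l and Ubac2 were added because they overlap members, and the marker and ligand values follow the lists; Coro1a, Sgpp1, Sphk1, Sphk2, Cr2, Rag1, Dntt, Cd93, Rgs13, Rgs14, Rgs18 and Rgs19 were named after their values were seen. Some genes that the lists hold are not reported here by name; they stay in the counts over the lists.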

Additional observations from a re-analysis of the deposited data

Results flagged for a closer look

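The following allelic differences were singled out because the test of the difference itself, the edgeR contrast of the allele effects of 2 clones, passed an adjusted p of 0.05. For Cxcr4 the log2 maternal to paternal ratio in Abl.2 was 0.50 above that in Abl.3 (0.504122, adjusted p = 0.000816) and 0.50 above that in Abl.4 (0.501897, adjusted p = 0.000923), or 0.31 and 0.36 with the null at the allele totals. For S1pr4 the ratio in Abl.2 minus that in Abl.3 was -0.99 (adjusted p = 0.000851), and minus that in Abl.4 it was -1.14 (adjusted p = 0.000532), beside a chromosome 10 median share of 0.337 in Abl.2. For S1pr1 the ratio in Abl.2 minus that in Abl.4 was -3.06 (adjusted p = 0.0155), a fitted size that depends on the prior count because 1 Abl.2 library had 0 maternal counts. This S1pr1 difference was -2.16 without Abl.2 replicate 1 and -6.56 without Abl.2 replicate 2.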

How the results depend on the processing

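Depth limits Cxcr5, Gpr183, Ccr9 and the Ccr7 and S1pr1 alleles in Abl.2. Leaving out 1 library each, the calls over all genes ranged from 2529 to 4565 for Abl.2 against Abl.3 (4382 with all), 2040 to 3269 for Abl.2 against Abl.4 (3682) and 2336 to 3659 for Abl.3 against Abl.4 (4194). Members with an allelic difference between Abl.2 and Abl.3 ranged from 2 to 4. Ccr7 in Abl.2 turned with the library left out: the imbalance was -1.79 without replicate 1 (adjusted p = 0.0137) and 2.60 without replicate 2, and the difference from Abl.3 was -2.31 and 2.08; the cause was not tested. Those 2 were the sign changes that passed the threshold in the alternative. Differences without a call also turned: the Ccr7 allelic difference between Abl.2 and Abl.4 went from -0.89 to 1.64 without Abl.2 replicate 2, that of Cxcr5 between Abl.2 and Abl.3 from -0.40 to 0.58 without Abl.3 replicate 2, and the S1pr1 abundance difference between Abl.2 and Abl.3 from -0.10 to 0.04 without Abl.3 replicate 1. The Ccr7 imbalance within Abl.2 was -0.09 with the null at the allele totals. Over all alternatives 15 values gained and 27 lost a call; 207 counts stayed within 1.5 times and 9 did not.

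The S1pr1 difference in allele ratio between Abl.2 and Abl.3 passed with DESeq2 (adjusted p = 0.0332) and with a null at the allele totals (0.0421). The Ccr7 imbalance in Abl.4 had an adjusted p of 0.493 with DESeq2. Under other scalings 2 ligand genes in place of 4 were called between Abl.3 and Abl.4, and on summed counts 5 of 9 adhesion genes in place of 8 of 12 in each pair with Abl.2, 3 of 7 regulators in place of 5 of 8 between Abl.2 and Abl.4, and 8 of 13 other receptors with edgeR and 7 of 13 with DESeq2 in place of 5 of 9 there (4 of 9 with quantile normalisation), so the genes tested changed as well. Among called genes of the receptor, ligand, signalling, adhesion and regulator lists that were also tested under the other scaling, only Coro1a changed sign, on summed counts between Abl.2 and Abl.4. The marker lists were not compared.

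The replicate numbers name library preparations only, and same-numbered libraries correlated by 0.104 to 0.187 in abundance and -0.056 to 0.0151 in maternal share. With the replicate block, 5213, 4608 and 5184 genes were called for abundance, 2404, 1894 and 1343 for allelic differences and 3798, 3368 and 2952 for imbalance within lines. Under the block the Cxcr5 imbalance in Abl.2 had an adjusted p of 0.0529, and no other member's call changed.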
